A study of Drosophila melanogaster with 4 samples.

Results

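The ecdysone receptor genes EcR and usp and 8 genes of the ecdysone response (br, Eip74EF, Eip75B, Eip78C, ftz-f1, ImpE1, ImpE2 and Blimp-1) were followed in cells sorted from the fly eye. These 10 genes were chosen by name, and all 10 were found by symbol among the 14935 genes of the table. EcR lies on chromosome arm 2R, usp and br on X and the other 7 on 3L. RNA was sequenced from larval cone cells (CCs), pupal CCs, adult CCs and adult photoreceptors (PRs), with 1 library each. CCs, also called Semper cells, sit over the PRs of each eye unit and secrete much of its lens. Larvae were wandering, pupae were taken 25 h after puparium formation, and adults 1 to 2 days after eclosion, with eyes of 45 to 75 animals in each library. GFP-positive larval and pupal CCs came from animals that were sev-, prosPSG-GFP and TM2/TM6B, and the sev mutation leaves their eyes without R7 photoreceptors. Adult CCs came from flies that were yw67, sp/CyO and TM2/TM6B, stained with dye-coupled antibodies to Fas3 for CCs and to Futsch for PRs and bristle neurons. Adult PRs came from prosPSG-GFP retinas and were gated as cells with RFP from an eye-marker transgene and without GFP. Larval and pupal CCs therefore differ in stage, adult CCs and PRs differ in cell type, genotype and sorting, and adult CCs differ from the younger CCs in stage, genotype and sorting. These factors, and the making of each library, cannot be told apart.

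Ecdysone is the steroid that times moulting and metamorphosis in insects. It binds a heterodimer of the nuclear receptors EcR and Usp, and pulses of it switch on early genes, mostly transcription factors such as br, Eip74EF and Eip75B, which in turn control later genes that carry out the change in each tissue. A pulse at the end of larval life starts pupariation, and a larger one follows in the pupa. In Drosophila, Eip75B, Blimp-1, ftz-f1 and the nuclear receptor gene Hr3 (listed as Hr46) form a timing circuit in which Blimp-1 represses and Hr3 activates ftz-f1. In the eye disc, hormone signalling is known to act on the furrow that sweeps across the disc and on later differentiation. No hormone was given or measured here, so the word response describes what the genes are known for.

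Values are log2 levels of TMM-normalized read counts per gene, where TMM is a scaling that evens out differences in RNA composition. On the linear scale they are called units, and listings of 0 stand for normalized counts up to 1. The spacing of low values put 1 read at 0.597 to 1.66 units and 32 units at an estimated 19.3 to 53.6 reads, though only 38.3% to 65.0% of the low values (under 30 units) fell on whole reads within 0.02 units, so counts were not recovered. The library totals that this spacing implies are below the number of reads per sample in the study's methods, and all read numbers given here are therefore estimates that may be too low. Markers of the labelled cells followed the labels for PRs, whose 8 markers summed to 276832 units in PRs and to 5.68 to 16.8 units in the CC libraries. The 8 cone cell and lens markers summed over the CC stages to 3562, 4867 and 222331 units and to 5005 units in PRs. retinin, a lens protein gene, made up 188567 units of the adult CC sum, and ct, sv, eya, Crys and B-H1 were also called higher in adult CCs than in PRs. B-H1 was at only 40.7 units in adult CCs and listed at 0 in PRs. In contrast pros was at 19.4 units in adult CCs and 33.2 in PRs, and at 844 units in pupal CCs, and lz, at 17.1 and 113 units, was called lower in adult CCs. By number, 6, 5 and 6 of these 8 markers reached 32 units over the CC stages and 6 did in PRs, so the count does not set CCs apart from PRs. Since every condition is a single library, differences carry no replicate error and none was tested. A gene was called higher or lower where log2(value + 4) differed by 2 or more, which is a 4-fold difference, and the higher of the 2 libraries had at least 32 units. In bulk RNA of sorted cells, fewer cells of a type and less RNA per cell cannot be told apart.

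All 10 genes stood at 32 units or more in larval and in pupal CCs, 8 did so in adult CCs and 7 in adult PRs. By the deposited scaling 3 of them (br, ImpE1, ImpE2) were highest in larval CCs among the CC stages, 5 (usp, Eip74EF, Eip75B, Eip78C, Blimp-1) in pupal CCs and 2 (EcR, ftz-f1) in adult CCs. Of the 7028 genes at 32 units or more in a CC library, 21.9% peaked in larvae, 31.2% in pupae and 46.9% in adults. With equal library totals the counts of the 10 genes were 4, 5 and 1, against 40.4%, 33.3% and 26.3% of all genes, since EcR then peaked in pupal and usp in larval CCs.

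**Figure D1:**
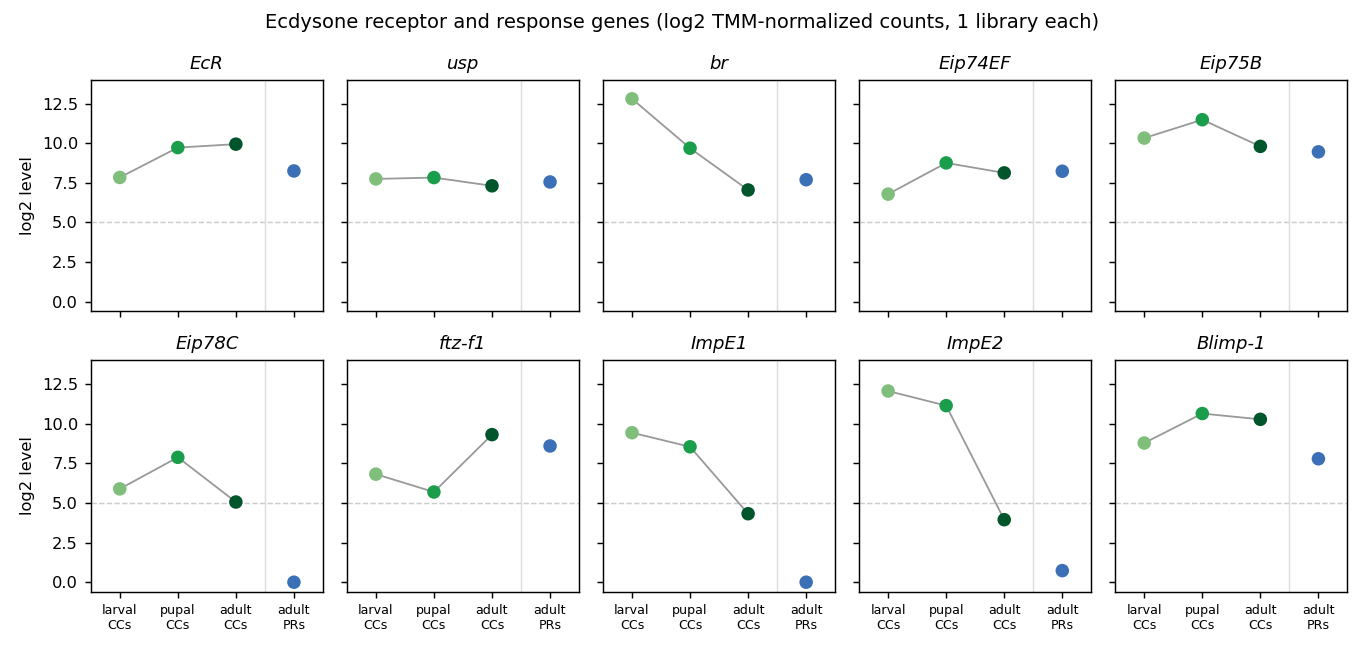
Log2 levels of the 10 genes in larval, pupal and adult CCs (light to dark green, joined by a line) and adult PRs (blue), 1 library each, with log2 of TMM-normalized counts on the vertical axis and a dashed line at 32 units. The usp points lie between 7.31 and 7.83, while br, ImpE1 and ImpE2 descend over the 3 CC stages and Eip78C and ImpE1 are listed at 0 in PRs.

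The receptor genes behaved differently from each other. EcR (FBgn0000546), which encodes the hormone-binding partner, was at log2 7.84 (larval), 9.72 (pupal) and 9.94 (adult) in CCs and 8.25 in PRs. Its level was thus lowest in larval CCs, close to that in PRs, and higher in both later CC libraries. usp (FBgn0003964), which encodes the fly member of the RXR family and is needed for EcR to bind the hormone with high affinity, was at 7.75, 7.83, 7.31 and 7.55 in the same order. Its values in the CC stages spanned 1.43-fold, the narrowest range of the 10 genes. The ratio of EcR to usp units does not depend on the scaling of libraries. It was 1.07 (larval), 3.71 (pupal) and 6.18 (adult) in CCs and 1.62 in PRs. These ratios are not corrected for length, and EcR has 9.93 kb of annotated exon where usp has 3.04 kb. Per kb, EcR was below usp in larval CCs (23.03 and 70.6 units) and in PRs (30.6 and 61.8 units). It was above usp in pupal CCs (84.9 and 74.9 units per kb) and in adult CCs (98.7 and 52.2). In the annotation usp shares 8.72% of its exon length with 2 neighbouring genes, Actn and CG4313, so some of its reads may belong to them.

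Of the early genes, br had by far the steepest course over the CC stages. br (listed under the older ID FBgn0000210), which encodes a family of BTB zinc finger factors that mark the larval to pupal transition, was at log2 12.80 (larval), 9.68 (pupal) and 7.05 (adult) in CCs and 7.69 in PRs. That is 7121, 822, 132 and 207 units, so each CC stage held less than the one before it and the adult libraries lay within 2-fold of each other. The ETS factor gene Eip74EF (FBgn0000567) was at log2 levels of 6.79, 8.75, 8.13 and 8.23 in the same order, lowest in larval CCs and between 8.13 and 8.75 elsewhere. Eip75B (FBgn0000568), whose product is a haem-binding nuclear receptor, was at 10.32, 11.48, 9.80 and 9.45 and so was highest in pupal CCs. Eip78C (FBgn0004865), which encodes a related nuclear receptor, was also highest in pupal CCs, at 7.88, against 5.89 (larval) and 5.06 (adult), while PRs had a listing of 0. The adult CC value of Eip78C is 33.3 units, an estimated 39.0 reads and just above the 32 units of the rule. Counts per gene do not separate isoforms, and the promoters of EcR, br, Eip74EF, Eip75B and ftz-f1 that answer to different hormone levels are added together in these values.

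The genes of the competence circuit were in opposite places in pupal CCs. Blimp-1 (FBgn0035625), a zinc finger repressor induced by the hormone, was at log2 8.78 (larval), 10.64 (pupal) and 10.27 (adult) in CCs and 7.79 in PRs. ftz-f1 (FBgn0001078), an orphan nuclear receptor that makes tissues competent for the next pulse, was at 6.82, 5.69, 9.31 and 8.59 in the same order. Pupal CCs thus held the highest value of Blimp-1 and the lowest of ftz-f1, while adult CCs held much of both. Within a library the ratio of Blimp-1 to ftz-f1 units was 3.90 (larval), 30.9 (pupal) and 1.95 (adult) in CCs and 0.572 in PRs. A non-coding gene on the same strand covers 29.4% of the annotated exon length of ftz-f1, and reads from it may be counted here.

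The disc effector genes were high in the younger CCs and low in both adult libraries. ImpE2 (FBgn0001254), which encodes a secreted protein of evaginating discs, stood at log2 12.06 (larval) and 11.14 (pupal) in the younger CCs, then at 3.94 in adult CCs, and at 0.73 in PRs. ImpE1 (FBgn0001253), which encodes a membrane protein with repeats like those of the LDL receptor, was at 9.43, 8.54 and 4.32 over the CC stages, with a listing of 0 in PRs. In adult CCs these genes were down to an estimated 18.0 reads for ImpE2 and 23.4 for ImpE1, and in PRs ImpE2 was at 1.66 units, the spacing taken as 1 read there. Their ratio, ImpE2 to ImpE1, was 6.19, 6.04 and 0.770 over the CC stages, so ImpE2 differed more between adult and younger CCs than ImpE1 did.

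Between genes, levels are comparable only per length, and lengths were taken from the BDGP6 annotation, a later build than the dm3 of the values. Per kb of annotated exon, ImpE2 led the 10 genes in larval CCs at 2498 units and in pupal CCs at 1318 units, above 99.9% and 99.7% of the genes listed above 0. In larval CCs br came next at 352 units per kb (97.8th percentile), followed by ImpE1 at 110, Eip75B at 95.0, usp at 70.6 and Blimp-1 at 52.0. EcR, at 23.03 units per kb in larval CCs, stood near the middle of the genes listed above 0 (54.4th percentile). In pupal CCs Eip75B at 212 and Blimp-1 at 188 units per kb came after ImpE2, and EcR at 84.9 and usp at 74.9 were close to each other. In adult CCs the order was led by Blimp-1 at 146, EcR at 98.7, ftz-f1 at 73.8, Eip75B at 66.1 and usp at 52.2 units per kb, with br at 6.55 (32.9th percentile). In adult PRs usp at 61.8, Eip75B at 52.1 and ftz-f1 at 45.0 units per kb led. The exon length used is the union over all annotated transcripts, 20.2 kb over 16 transcripts for br, and a gene whose transcripts use part of that union is understated per kb.

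**Figure D2:**
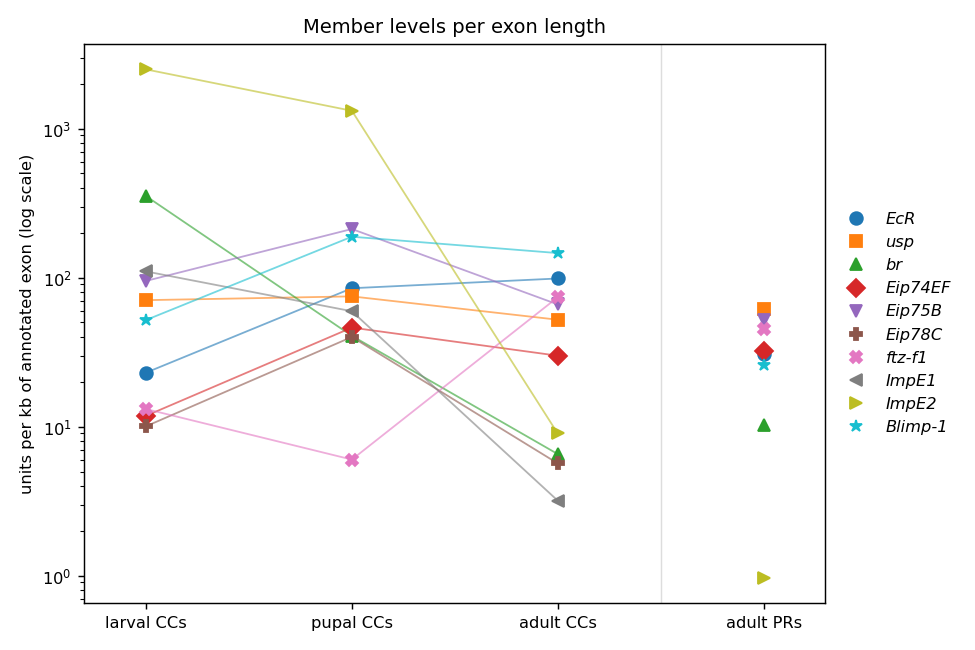
Units per kb of annotated exon (log scale) for each of the 10 genes in larval, pupal and adult CCs, joined by lines, and in adult PRs, 1 library each. ImpE2 leads the larval and pupal libraries at 2498 and 1318 units per kb, Blimp-1 leads in adult CCs at 146, and genes listed at 0 in PRs (Eip78C and ImpE1) have no point there.

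Pupal CCs, set against larval CCs, give the step between newly specified and maturing CCs, in cells of 1 genotype sorted in 1 way. br was the gene called lower, at 822 units in pupal and 7121 in larval CCs, which is -3.11 in log2(value + 4). It was the 36th lowest of the 6171 genes past the floor, and by the difference of square roots br was at the bottom of all 14935 genes. The study ranked genes by that measure too, but against whole flies and between CCs and PRs, not between CC stages. No member was called higher by the 4-fold rule and 1 was called lower, where 11.2% of all genes past the floor were higher and 2.59% lower. Of the members, 4 lay just under that rule: Eip74EF with a difference of 1.93, Eip78C with 1.92, EcR with 1.86 and Blimp-1 with 1.85. Eip74EF was at 431 units in pupal and 110 in larval CCs, a ratio of 3.91, and EcR at 843 and 229 units, a ratio of 3.69. A 2-fold rule, added after these values were seen, called 5 of 10 members higher (these 4 and Eip75B, with a difference of 1.16) and 2 lower (br and ftz-f1, with -1.07), against 21.8% of all genes higher and 7.89% lower. ImpE1 and ImpE2 had differences of -0.88 and -0.92, and usp had 0.08. The median over the 10 members was 0.62 and that over all genes 0.23. Equal library totals lower these differences by about 0.31 and turn that of usp to -0.22, with no change in the 4-fold calls.

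Adult CCs, set against pupal CCs, held less of 4 members by the 4-fold rule and more of 1. ImpE2 was at 15.4 units in adult and 2250 in pupal CCs, a difference of -6.86 that was the 12th lowest of 6767 genes. ImpE1 differed by -3.97, Eip78C by -2.68 and br by -2.60. ftz-f1 was the member called higher, at 634 units in adult and 51.6 in pupal CCs, a ratio of 12.3 and a difference of 3.52. These are 4 of 10 members lower and 1 higher, against 13.5% and 14.3% of all genes, and by the 2-fold rule 5 lower (Eip75B is added) and 1 higher, against 25.4% and 28.9%. Eip75B differed by -1.68 and passed the 4-fold rule, at -2.51, with equal library totals. EcR differed by 0.22, usp by -0.51, Eip74EF by -0.62 and Blimp-1 by -0.36, all below a 2-fold difference, and EcR turned to -0.61 with equal totals and to -0.08 with medians set equal (each library's median log2 ratio to the mean library brought to 0). The median over the members was -1.15, against 0.11 over all genes.

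Over the whole course, adult against larval CCs, ImpE2 had the lowest difference of all 6435 genes past the floor, -7.78, at 15.4 units in adult and 4267 in larval CCs. br differed by -5.71 and ranked 21st from the bottom, and ImpE1 differed by -4.85 and ranked 62nd. EcR, with a difference of 2.08, and ftz-f1, with 2.45, were called higher. The calls were thus 3 lower and 2 higher of 10 members, where all genes gave 10.3% lower and 20.9% higher. The 2-fold rule gave 3 lower and 4 higher, with Eip74EF at 1.31 and Blimp-1 at 1.48 added, against 20.9% lower and 37.2% higher. Both calls of higher members were lost with equal library totals, at 0.95 for EcR and 1.33 for ftz-f1, and with medians set equal, at 1.60 and 1.97. Equal totals move the median of all genes in this comparison to -0.65, from 0.45 as deposited, whereas br, ImpE1 and ImpE2 kept their calls under both scalings. The comparison shares its libraries with both stage steps and adds no independent measurement.

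Markers of other cells moved over the same libraries. All 6 dividing cell markers were at 32 units or more in larval CCs. They summed over the CC stages to 2780, 516 and 54.7 units and to 38.2 units in PRs. br, ImpE1 and ImpE2 fell in that same order over the CC stages. CycB, PCNA and Mcm2 were listed at 0 in PRs. The 7 hemocyte markers summed to 8.36, 415, 269 and 18.0 units in the same order of libraries, with 3 of 7 at 32 units or more in pupal and in adult CCs and He listed at 0 in all 4 libraries. The 6 bristle lineage markers summed to 1628, 1830, 162 and 5687 units, of which futsch, the gene of the antigen that also marks PRs, had 1269, 1438, 95.8 and 5671, while ase, Poxn and nompC were listed at 0 in PRs. That list also holds svp, a gene of photoreceptor subtype fate, at 74.6, 172, 9.60 and 12.4 units, so its sum is not specific to bristle cells. The 6 glial markers summed to 64.8, 286, 532 and 248 units and the 7 fat body markers to 4.63, 102, 114.99 and 94.6 units. The 5 muscle markers summed to 41.6, 137, 151 and 3.28 units. Single genes carried much of some of these sums. In adult CCs wrapper had 341 of the glial units, while repo was at 47.9 units in pupal and 1.71 in adult CCs. apolpp (listed as Rfabg) had 104 of the fat body units in adult CCs, where 4 of the 7 markers were listed at 0. Mhc was listed at 0 in larval CCs and had 84.4 units in pupal and 104 in adult CCs. Act57B went the other way, at 40.4, 29.7 and 13.9 units over the CC stages. The 6 pigment cell markers summed to 1138, 1110, 95623 and 11943 units, of which Pdh had 94871 in adult CCs and 11406 in PRs. The part of these cells in the levels of the 10 genes was not tested.

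**Figure D3:**
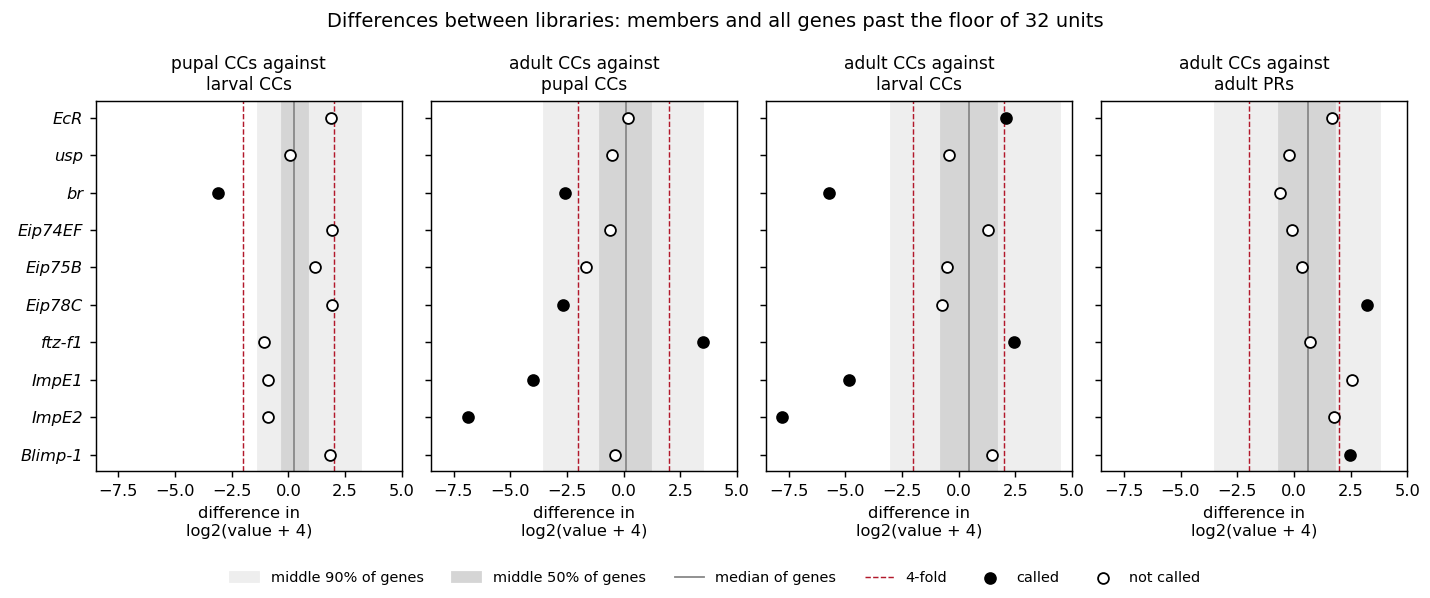
Difference in log2(value + 4) for each of the 10 genes (points, filled where called by the 4-fold rule) in 4 comparisons of 1 library each, over the middle 50% and 90% of all genes past the floor (grey bands), with dashed lines at a 4-fold difference. EcR, Eip74EF, Eip78C and Blimp-1 lie just short of the dashed line on the right in pupal against larval CCs, and ImpE2 lies far to the left of the bands, at -6.86 and -7.78, in both comparisons of adult with younger CCs.

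Adult CCs and adult PRs, which are of 1 stage but differ in genotype and sorting as well as in cell type, differed by less than 2-fold in 5 members. Eip75B was at 889 units in adult CCs and 700 in PRs, a difference of 0.34, Eip74EF at 279 and 300 (-0.10), usp at 159 and 188 (-0.24), br at 132 and 207 (-0.63) and ftz-f1 at 634 and 386 (0.71). Blimp-1 was called higher, at 1237 units in adult CCs and 221 in PRs, a ratio of 5.60 and a difference of 2.47. Eip78C was also called higher, at 33.3 units in adult CCs and listed at 0 in PRs. EcR was at 980 units in adult CCs and 304 in PRs, a ratio of 3.23 and a difference of 1.68, which is short of the 4-fold rule. ImpE1 and ImpE2 did not reach 32 units in either library, so 8 members could be called, with 2 higher and 0 lower, against 21.9% of all genes higher and 11.5% lower. The 2-fold rule added EcR, giving 3 higher and 0 lower, against 42.2% and 20.4%, so the members' share of higher calls is near that of all genes. The call of Eip78C was lost with 16 units added (1.62) and with either other scaling, where its value dropped below 32 units, and that of Blimp-1, at 1.89, with medians set equal, which also turned Eip75B to -0.24. The median over the 8 members was 0.53 and that over all genes 0.64. Of the 6 pigment cell markers, Pdh and st were called higher in adult CCs than in PRs and rst, at 9.40 units in adult CCs and 121 in PRs, was called lower, and their part in these differences was not tested.

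Among 7461 other genes at 32 units or more in some library, those most like each member were found by the root mean square distance of log2(value + 4), centred per gene, over the 4 libraries. With 4 points such likeness is a description only. The genes nearest to EcR were l(2)k11101 (distance 0.12), CG3829 (0.17) and CG17707 (0.21), and 197 genes lay within 0.5. br had 14 genes within 0.5, led by the bHLH repressor gene Hey (0.14), the Bearded family gene Tom (0.23) and the mitotic kinesin gene pav (0.24), all at 0.73 or less in both adult libraries. Nearest to ftz-f1 were Best2 (0.17), vir-1 (0.19) and CG17224 (0.20), and nearest to Blimp-1 were Samuel (0.15), CG14440 (0.19) and CG10738 (0.20). Eip78C had 7 genes within 0.5, with kn, which encodes a COE family transcription factor, at 0.25, CG5466 at 0.36 and Sox102F at 0.42. Nearest to Eip74EF were Pka-R2 (0.07), CG31612 (0.08) and cnir (0.10), and nearest to Eip75B were CG11597 (0.08), CG13163 (0.10) and CG6094 (0.12). usp, whose level varied least, had 1232 genes within 0.5, led by mio (0.03), CG4679 (0.04) and CG14683 (0.05). ImpE1 had 2 genes within 0.5, malpha (0.41) and ham (0.44), with drl next at 0.53, and ImpE2 had 0, with CG43164 nearest at 0.68, then Spn43Aa (0.72) and pncr002:3R (0.77). Among the members themselves the closest were EcR and Blimp-1, 0.56 apart, and the farthest ftz-f1 and ImpE2, 5.43 apart.

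Of 9 other transcription factor genes of the hormone response, the 4-fold rule called Eip93F higher and Kr-h1 lower at the larval to pupal step. At the pupal to adult step it called Kr-h1 and vri higher and Hr4 lower. Over both steps together Hr38, Eip93F and vri were higher and Hr46 and Hr4 lower, and beside PRs adult CCs had more Sox14 and less Hr46. The calls at the pupal step were 1 higher and 1 lower of 8 past the floor, beside 11.2% and 2.59% of all genes. At the adult step they were 2 and 1 of 9, beside 14.3% and 13.5%. Over both steps they were 3 and 2 of 9, beside 20.9% and 10.3%. Against PRs they were 1 and 1 of 8, beside 21.9% and 11.5%. Eip93F, which encodes the factor known to specify adult fates, was at log2 7.32 (larval), 10.29 (pupal) and 10.65 (adult) in CCs and 10.85 in PRs, and its difference between pupal and larval CCs, 2.94, was called higher. The ratio of br to Eip93F units was 44.5 (larval), 0.656 (pupal) and 0.0824 (adult) in CCs and 0.112 in PRs, so br held the larger number of counts in larval CCs alone. Kr-h1, a zinc finger gene induced by juvenile hormone and by ecdysone, was at 8.86, 2.93, 9.40 and 9.71, and thus low in pupal CCs alone, with differences of -5.33 at the pupal step and 5.87 at the adult step. Hr46, which activates ftz-f1, was at 8.96, 7.10, 6.15 and 9.91, so it was lowest in adult CCs, where ftz-f1 was highest. The nuclear receptor gene Hr4 was at 7.30, 6.90, 2.86 and 3.34 with a call of lower at the adult step (-3.45). vri, a bZIP gene that also belongs to the circadian clock, was at 6.50, 5.89, 11.61 and 11.92.

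**Figure D4:**
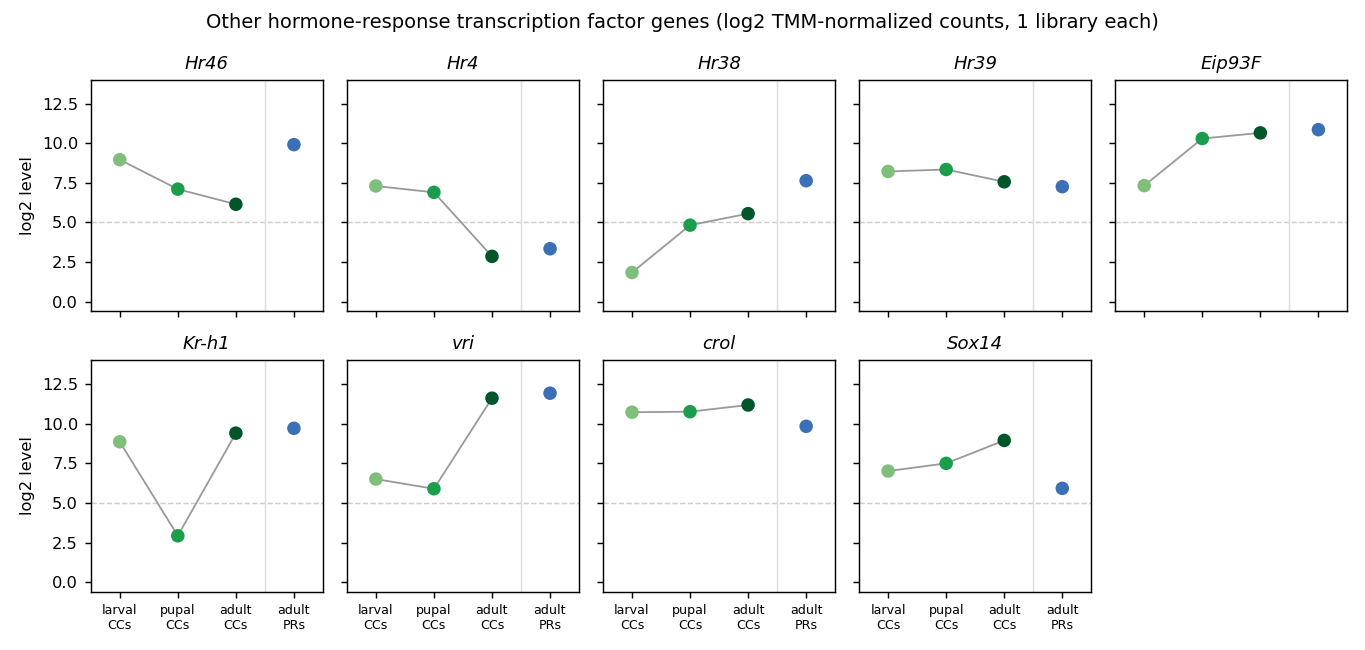
Log2 levels of 9 other hormone-response transcription factor genes in larval, pupal and adult CCs (light to dark green, joined by a line) and adult PRs (blue), 1 library each, with log2 of TMM-normalized counts on the vertical axis and a dashed line at 32 units. Kr-h1 dips to 2.93 in pupal CCs, Eip93F stands above 10 in all libraries but the larval one, and Hr4 is near 3 in both adult libraries.

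Genes that make, carry or inactivate the hormone were mostly low. Of 12 genes of ecdysteroid synthesis 11 were measured, and 3 to 5 of these passed the floor in a given comparison. The hydroxylase genes phm, dib, sad and shd stayed at log2 levels of 3.83 or less in all libraries. The zinc finger genes mld and woc, known as regulators of synthesis genes, and the sterol transporter gene Npc1a were at 7.23 or more throughout. mld, at 7.66 in adult CCs and 10.31 in PRs, and the oxygenase gene nvd, at 1.56 and 5.05, were called lower in adult CCs. Npc1a was at 10.51 in adult and 8.11 in larval CCs and was called higher, by 2.39. The hormone importer gene Oatp74D was at 5.97, 6.48 and 4.09 over the CC stages and 4.19 in PRs, with a call of lower at the adult step (-2.15). Cyp18a1, whose enzyme inactivates ecdysteroids, was at 2.96 in larval CCs, listed at 0 in pupal CCs, and at 5.70 in adult CCs and 5.49 in PRs, and it was called higher in adult than in pupal CCs. DopEcR, which encodes a membrane receptor for dopamine and ecdysteroids, was at 3.16, 8.46, 7.34 and 12.11 in the order larval, pupal and adult CCs and PRs. The difference of 4.78 at the pupal step and that of -4.74 from PRs were both called.

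The co-regulators and chaperones of the receptor stayed within the 4-fold rule at each stage step. All 11 reached 32 units in every comparison, with 0 called at the pupal step, 0 at the adult step and 1 (rig, lower, with -2.03) over both. Of all genes, 11.2% were higher and 2.59% lower at the pupal step, and 14.3% and 13.5% at the adult step. Over both steps these shares were 20.9% and 10.3%. The coactivator gene tai, the fly homologue of the AIB1 coactivator, was at log2 levels of 8.79, 9.45 and 9.94 over the CC stages and 8.26 in PRs, and the corepressor gene Smr at 9.43, 9.09, 10.13 and 9.39. Between adult CCs and PRs 3 of the 11 were called higher, namely the histone demethylase gene Utx (2.38), Hsp83 (2.35), which encodes the Hsp90 chaperone, and its cochaperone gene Hop (3.32), a share near the 21.9% of all genes. The list had a median of -0.34 at the pupal step and -0.03 at the adult step, and of 0.74 from PRs, beside 0.23, 0.11 and 0.64 over all genes.

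Of 19 other effector genes known as hormone-responsive, 9 to 12 reached 32 units in a comparison. hid (listed as W), a cell death gene, was highest in pupal CCs at a log2 level of 8.60, against 6.23 in larval CCs, 6.36 in adult CCs and 4.54 in PRs, with a call of higher at the pupal step (2.30) and of lower at the adult step (-2.18). rpr, another cell death gene, did not reach 32 units in any library (4.73 at most, in pupal CCs). ImpL1, another gene of disc polysomes, was called lower in pupal than in larval CCs, at 3.34 in pupal and 7.18 in larval CCs. ImpE3, the remaining gene of the ImpE group, took another course than ImpE1 and ImpE2, at 6.92, 5.25 and 7.71 over the CC stages and 5.23 in PRs, and was called higher in adult than in pupal CCs (2.34). Ddc, the dopa decarboxylase gene of cuticle hardening, was at 8.83 in adult and 3.04 in pupal CCs. ImpL3, the lactate dehydrogenase gene, was at 6.03 in adult CCs, 3.15 in larval CCs and listed at 0 in the other libraries, and was called higher in adult CCs against each. ImpL2, whose product binds insulin-like peptides, was at 6.61 in adult CCs and 3.72 in PRs and was called higher (2.57), and Eip63F-1, at 5.32 in adult CCs and listed at 0 in larval CCs, was called higher in adult than in larval CCs. Eip63F-1 had only 40.0 units in adult CCs, near the 32 units of the rule, and a higher level, 6.77, in PRs. The late cuticle genes Edg78E, Edg84A and Edg91 and the fat body genes Fbp1 and Fbp2 stayed at 1.77 or less in all 4 libraries. Over the whole set of 76 measured genes of these lists, which include the remaining nuclear receptors and juvenile hormone genes, 4 were higher and 3 lower of 45 past the floor in pupal against larval CCs, where all genes gave 11.2% and 2.59%. In adult against pupal CCs 11 were higher and 4 lower of 51, beside 14.3% and 13.5% of all genes. In adult against larval CCs the counts were 14 and 7 of 53, beside 20.9% and 10.3%, and in adult CCs against PRs 12 and 5 of 48, beside 21.9% and 11.5%, so the share of higher calls from PRs is near that of all genes.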

How the data were processed

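Per the file header and the study's methods, reads were mapped to the dm3 genome, summarised per Ensembl gene and TMM-normalized to whole-animal data by the authors, who deposited the log2 values. TopHat2 2.0 and Bowtie 1.0 appear in the submitters' processing notes, and Avadis NGS in the methods. RNA had been amplified before library preparation, so reads are not independent molecules. Of 14959 entries, 24 repeats of a gene, all at 0, were left out. Levels were returned to the linear scale, with a listed 0 taken as 0 units, and differences were taken on log2(value + 4).

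List genes were matched by symbol or FlyBase ID, and exon lengths came from the Ensembl BDGP6 annotation, found for 96.8% of genes. Members and lists were chosen with earlier results of these data known. The genes named were all members, list genes called in any comparison and, for each member, the 3 nearest genes by pattern. Other list genes named were chosen after their values were seen. Alternatives were constants of 1 and 16 units, 2 library scalings, other floors, 8-fold and 2-fold rules, and a ranking by square roots. Python 3.11.15, numpy 2.4.6, pandas 2.3.3 and matplotlib 3.10.9 were used.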

Additional observations from a re-analysis of the deposited data

How the results depend on the processing

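No paired analysis was possible because each condition has 1 library, and for the same reason no library could be left out of a group. In pupal against larval CCs, the top 1000 of 14935 genes by the difference of square roots held 5 members as higher and 4 as lower. That ranking takes 1000 genes in each direction whatever the data and favours genes with many counts. ImpE1 and ImpE2 were among its lower members at differences of only -0.88 and -0.92. The 2-fold rule, added after the data were seen, gave 5 and 2, beside 21.8% and 7.89% of all genes past the floor. The 4-fold rule gave 0 and 1, beside 11.2% and 2.59%. In adult against pupal CCs the 8-fold rule left 2 members lower (ImpE1 and ImpE2). In adult against larval CCs the count of higher members was 0 with equal totals, with the median log2 ratio set to 0 and with the 8-fold rule, and 4 with the 2-fold rule. In adult CCs against PRs it was 1 with 16 units added, with equal totals, with the higher floor of the alternatives and with the 8-fold rule, and 0 with the median log2 ratio set to 0. Of the 40 differences of single members, 37 kept their sign under the other constants and scalings, and the exceptions were usp between pupal and larval CCs, EcR between adult and pupal CCs and Eip75B between adult CCs and PRs. The alternatives were run for the members only, and the calls of list genes were not checked under them. Equal library totals shift differences by about -0.83 in adult against pupal CCs and -1.14 in adult against larval CCs. Calls of higher list genes near the rule in these comparisons, such as gce at 2.06, therefore rest on the deposited scaling. Low levels limit ImpE1, ImpE2 and Eip78C in the adult libraries, and no alternative measures the spread between separate samples.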

Other observations

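Of 9 genes of juvenile hormone, the hormone that holds back metamorphosis, 6 reached 32 units in adult or pupal CCs, and at the adult step 4 were called higher and 0 lower, beside 14.3% and 13.5% of all genes. The median difference was 2.63, against 0.11 over all genes. The receptor gene gce was at log2 4.04 (larval), 6.91 (pupal) and 9.01 (adult) in CCs and 7.53 in PRs. It was called higher at the pupal step (2.60) and, just past the rule, at the adult step (2.06). The other receptor gene, Met, was at 5.87, 6.18, 7.64 and 6.82. The epoxide hydrolase genes Jheh1 and Jheh2, whose enzymes break the hormone down, differed in the larva, where Jheh1 had 0.57 and Jheh2 7.33, and stood at 4.16 and 4.05 in the pupa and at 7.62 and 8.78 in the adult CCs. Chd64, which encodes a protein that binds a juvenile hormone response element, was at 12.39 in adult and 5.99 in pupal CCs. FK506-bp1 went the other way, at 8.11, 6.44 and 4.73 over the CC stages, with a difference of -1.57 at the adult step and a call of lower in adult than in larval CCs (-3.20). Jheh3, at 2.30 in adult CCs and 5.90 in PRs, was called lower in adult CCs.

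Of the 12 nuclear receptor genes outside the members and the Hr genes above, 2 (Hr83 and eg) were listed at 0 in all 4 libraries. svp, a gene of photoreceptor subtype fate, was at log2 6.22 (larval), 7.43 (pupal) and 3.26 (adult) in CCs and 3.63 in PRs, with a call of lower at the adult step (-3.69). tll had 5.48 (larval) and 4.64 (pupal) and was listed at 0 in both adult libraries. Hnf4, a receptor gene of lipid metabolism, was called higher in adult than in pupal CCs (2.78) and in adult CCs than in PRs (2.30). Hr78 was at 8.07 in adult CCs and 3.95 in PRs, with a difference of 3.81. knrl, at 5.39 in adult CCs, 2.43 in larval CCs and 0 in PRs, was called higher in adult CCs against both. ERR ranged only from 6.34 to 6.81.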
